A study of Sus scrofa with 48 samples.

Results

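The genes described here were grouped as amino acid breakdown enzymes, though not all of them act on an amino acid: AGXT2L1, TAT, TDO2, HPD, HGD, SDS, AGXT, GLDC and BHMT. Their probes were found by gene name, or by an accession that maps to one of the 9 names, among the 60305 different probes of a custom porcine array. This gave 19 probes for 7 of the 9 genes. No probe was found in this way for TAT or AGXT, and they were not analysed here. AGXT2L1 was chosen on its lower signal with the high-fat diet in these same 48 pigs, so its diet difference is given as a description without a test, and it is left out of every count for diet. The other members were listed for their function, with earlier results of these data known.

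Liver RNA came from 48 castrated male Large White pigs of a pair of lines, divergently selected over 8 generations for residual feed intake (RFI). RFI is the part of feed intake that daily gain and backfat thickness do not account for. The low RFI line, labelled RFIneg, is the more efficient one, and the high RFI line is labelled RFIpl. From 74 days of age, 12 pigs of each line received a high-fat high-fiber diet (HF) and 12 a low-fat low-fiber diet (LF), both offered freely to pigs in pens of their own, until slaughter 58 days later, at 132 days of age and 2 h after the last meal. Each line is a single selected population, and the HF diet differed from the LF diet in fat and in fiber at once, so the effects of fat and of fiber cannot be told apart. Every pig had 1 array, labelled with 1 dye, and each of the 6 slides held 2 pigs of each group.

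The liver is the main site where most amino acids lose their nitrogen. Tyrosine is broken down in sequence by TAT, HPD and HGD, and tryptophan enters the kynurenine route through TDO2. SDS turns serine into pyruvate and ammonia, while GLDC is the decarboxylating protein of the glycine cleavage system in mitochondria. BHMT uses betaine to turn homocysteine back into methionine, and AGXT detoxifies glyoxylate in peroxisomes. AGXT2L1 was named for its likeness to alanine-glyoxylate aminotransferase 2. It is now called ETNPPL and is an ethanolamine-phosphate phospho-lyase, which breaks down phosphoethanolamine rather than an amino acid.

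The probes are 60-base oligonucleotides, and the sequences of those on which the results turn are given here 5′ to 3′, as in the scanner output, so that each signal can be traced to what it detects. A single probe stood for AGXT2L1, and both probes of HPD with the highest signal had the same sequence. The brightest GLDC probe (O597) overlapped another (A_72_P716393), and capitals mark the 57 bases they share. The last pair sets a BHMT probe (A_72_P444056) against the only probe of its paralog BHMT2 (O9314), and capitals mark the 44 bases that match among the 55 that align without a gap.
AGXT2L1: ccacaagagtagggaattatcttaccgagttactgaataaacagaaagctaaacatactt
HPD: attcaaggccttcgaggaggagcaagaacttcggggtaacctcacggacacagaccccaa
GLDC, first: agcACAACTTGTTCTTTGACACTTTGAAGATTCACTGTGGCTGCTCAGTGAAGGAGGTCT
GLDC, second: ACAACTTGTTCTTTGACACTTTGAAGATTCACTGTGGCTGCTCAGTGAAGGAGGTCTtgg
BHMT: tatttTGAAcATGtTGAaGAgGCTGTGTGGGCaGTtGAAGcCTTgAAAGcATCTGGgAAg
BHMT2: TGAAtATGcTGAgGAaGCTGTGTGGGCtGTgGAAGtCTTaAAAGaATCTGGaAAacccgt
The BHMT and BHMT2 probes thus differ at 11 of the 55 aligned bases, and whether RNA of 1 gene contributes signal to the probe of the other was not tested.

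Signals are log2 intensities after background subtraction, minus the median of the array over its tested probes, so a value of 0 is that median. They allow pigs to be compared for the same probe, but not the level of 1 gene to be compared with that of another. On each array, 65.8% to 77.2% of probes exceeded the background clearly (the scanner software's flag), and the median intensity of an array, over all probes and in scanner units, ranged from 56.19 to 126.4 with HF and from 53.04 to 95.4 with LF. Of the 19 member probes, 18 carried this flag on every one of the 48 arrays. The other, an SDS probe, carried it on 10 arrays and was not tested. Each member is represented below by its probe of highest mean signal among the 18 tested, and all 18 probes are counted.

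AGXT2L1 had a lower signal in pigs fed HF in both lines. In the low RFI line, its signal ranged from 1.54 to 3.36 (median 2.38) with HF and from 2.59 to 3.97 (median 3.33) with LF. In the high RFI line, it ranged from 1.11 to 3.55 (median 2.54) with HF and from 2.35 to 3.63 (median 3.26) with LF. The diets overlapped, but 10 of the 24 pigs fed HF lay below the lowest pig fed LF, 7 pigs fed LF lay above the highest pig fed HF, and 20 of 24 pigs fed HF were below the LF median.

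Averaged over the lines, the signal of AGXT2L1 was 2.48 ± 0.71 (SD, n = 24) with HF and 3.29 ± 0.38 (SD, n = 24) with LF, a log2 difference of -0.81, or 1.76-fold less with HF. The SD with HF was the larger of the pair, and pigs fed HF lay both within the range of those fed LF and well below it. The difference was -0.83 in the low RFI line and -0.79 in the high RFI line. It was below 0 on each of the 6 slides, from -1.504 to -0.24.

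The test for line and that for an interaction were not used to choose AGXT2L1. Between the lines, it differed by 0.12 on the log2 scale (low RFI minus high RFI, standard error 0.16, P = 0.464, P-BH = 0.834), where P-BH is the P-value after Benjamini-Hochberg adjustment over all 45236 tested probes. The line difference was 0.29 among arrays of the first scan day and -0.05 among those of the second. The diet difference in the low RFI line minus that in the high RFI line was -0.04 (95% confidence interval from -0.70 to 0.61, P = 0.897, P-BH = 1).

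**Figure D1:**
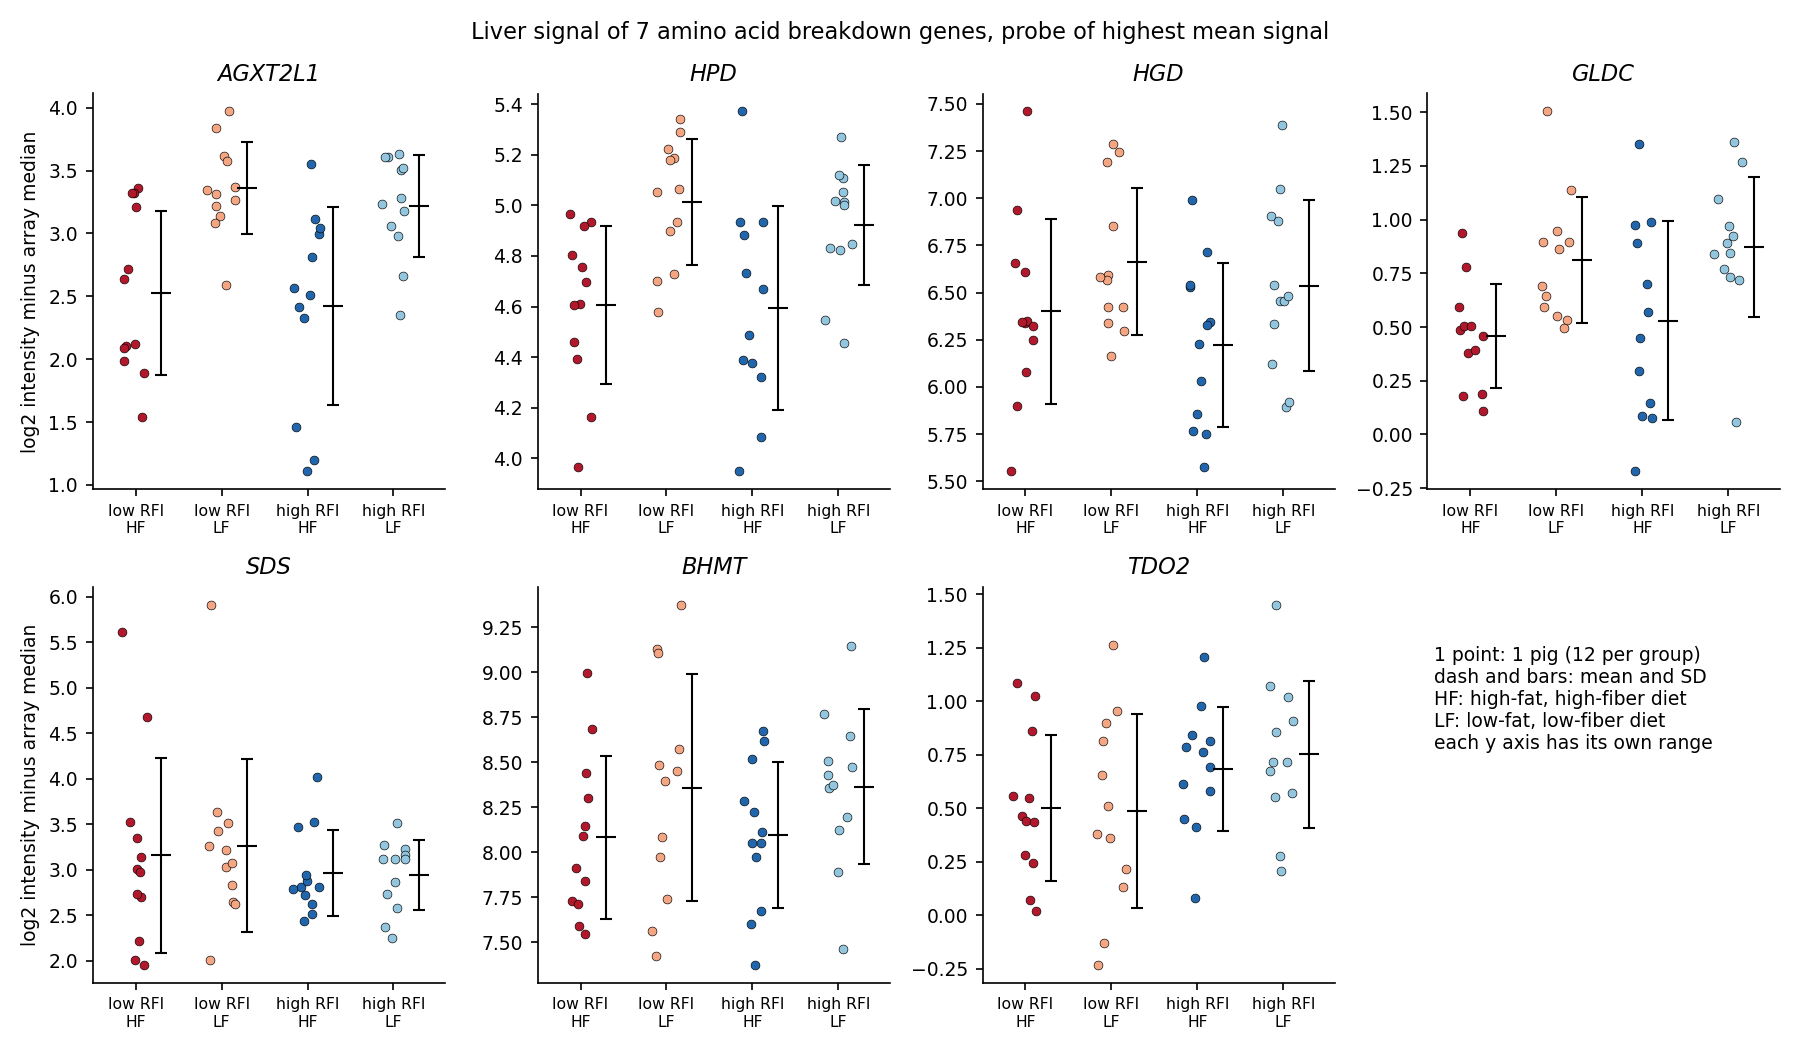
Signal of 7 genes in each pig (log2 intensity minus array median, y axis, with its own range in each panel) in the 4 line and diet groups (x axis, 12 pigs each), with mean and SD. AGXT2L1 and HPD lie lower with HF in both lines, GLDC likewise with more overlap, and 3 pigs from the low RFI line stand above all others for SDS.

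Within the tyrosine route, HPD was under-expressed with HF. HPD is the dioxygenase that makes homogentisate. In the low RFI line, its signal ranged from 3.96 to 4.97 (median 4.65) with HF and from 4.58 to 5.34 (median 5.06) with LF. In the high RFI line, the corresponding ranges were 3.95 to 5.37 (median 4.58) and 4.46 to 5.27 (median 5.01). A total of 23 of the 24 pigs fed HF were below the LF median, 8 of them below the lowest pig fed LF, and the exception was also the highest of all 48 pigs.

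The mean signal of HPD was 4.60 ± 0.35 (SD, n = 24) with HF and 4.97 ± 0.24 (SD, n = 24) with LF, a log2 fold-change (FC) of -0.37 (standard error 0.09, P = 0.000121, P-BH = 0.0405), or 1.29-fold less. The FC was -0.41 in the low RFI line and -0.33 in the high RFI line, and it was below 0 on all 6 slides, from -0.51 to -0.14. Taken alone, the first scan day gave -0.30 (P = 0.0103) and the second -0.43, and on the first day the probe no longer met P under 0.01. With the median intensity of the array as a covariate, the FC was -0.32 (P = 0.000661), and its P-BH rose to 0.105.

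Probes of HPD did not all respond to the same extent. The cut-offs used for the series are P under 0.01 and a fold-change over 1.1 in either direction before taking the log2, and they were met by 3 of the 5 HPD probes, all lower with HF. The identical probes gave -0.37 and -0.35, a further one gave -0.26 (P = 0.00601, P-BH = 0.164), and one gave -0.13 (P = 0.0108, P-BH = 0.208). The remaining probe, taken from a liver cDNA clone, gave -0.02 (standard error 0.07, P = 0.811, P-BH = 0.942). Across the 48 pigs, with group means subtracted, its Pearson r with the other HPD probes was between 0.22 and 0.36, whereas those other probes correlated with each other at 0.76 to 0.99. These correlations describe probes read on the same arrays and carry no test. The last 25 bases of the probe from the clone are shown because they also occur, with at most 5 mismatches and on either strand, in 10 probes of other names, against 0 to 2 for the end of any other member probe.
HPD, probe from the clone, last bases: ggaattcccgtcatggtgcggtggt
What this probe detects beside HPD was not tested.

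The next enzyme, HGD, which opens the ring of homogentisate, lay lower with HF without meeting the cut-offs. Its signal was 6.31 ± 0.46 (SD, n = 24) with HF and 6.60 ± 0.42 (SD, n = 24) with LF. The FC was -0.29 (standard error 0.13, P = 0.0254, P-BH = 0.273), with a confidence interval from -0.54 to -0.04, and that of its second probe was -0.26 (P = 0.059, P-BH = 0.367). A total of 5 of 24 pigs fed HF lay below every pig fed LF, but the highest pig was also fed HF. The difference was below 0 on 5 of the 6 slides.

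GLDC was also under-expressed with HF, and each of its 4 probes met the cut-offs. Its signal ranged from 0.11 to 0.94 (median 0.47) with HF and from 0.50 to 1.504 (median 0.78) with LF in the low RFI line. In the high RFI line, it ranged from -0.17 to 1.35 (median 0.51) with HF and from 0.06 to 1.36 (median 0.87) with LF. The diets overlapped over most of this range, and 19 of 24 pigs fed HF were below the LF median.

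For GLDC, the mean was 0.49 ± 0.36 (SD, n = 24) with HF and 0.84 ± 0.31 (SD, n = 24) with LF. The FC was -0.35 (standard error 0.10, P = 0.000805, P-BH = 0.0812), or 1.27-fold less, with -0.35 in the low RFI line and -0.34 in the high RFI line. Its 4 probes ranged from -0.37 to -0.29, and 1 of them had a P-BH under 0.05 (0.0456). All 6 slides gave a lower mean with HF, from -0.67 to -0.10. The first scan day alone gave -0.42 and the second -0.28 (P = 0.0825), and on the second day the cut-offs were no longer met. With array median intensity as a covariate, the FC was -0.29 (P = 0.00392, P-BH = 0.188).

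The signal of BHMT, in methyl group metabolism, was 8.09 ± 0.42 (SD, n = 24) with HF and 8.36 ± 0.53 (SD, n = 24) with LF. Its FC of -0.27 (standard error 0.14, P = 0.0536, P-BH = 0.355) did not meet the cut-offs, and the confidence interval from -0.55 to 0.00445 just included 0. The second BHMT probe gave -0.27 as well (P = 0.105, P-BH = 0.452). Although 18 of 24 pigs fed HF lay below the LF median and the difference was below 0 on all 6 slides (from -0.42 to -0.06), the spread between pigs of a group was larger than the difference between diets.

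SDS and TDO2 had small diet differences. For SDS, the FC was -0.05 (standard error 0.22, confidence interval from -0.48 to 0.39, P = 0.837, P-BH = 0.95), an interval wide enough to hold differences as large as those of HPD or GLDC. For TDO2, it was -0.03 (standard error 0.10, confidence interval from -0.23 to 0.18, P = 0.806, P-BH = 0.94). A probe named TDO in the scanner output, which the rule did not find but which carries an accession of TDO2, had a much higher signal, and its FC was -0.03 (confidence interval from -0.16 to 0.10, P = 0.623, P-BH = 0.863). The interval of this brighter probe lay above the FC of HPD and that of GLDC.

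**Figure D2:**
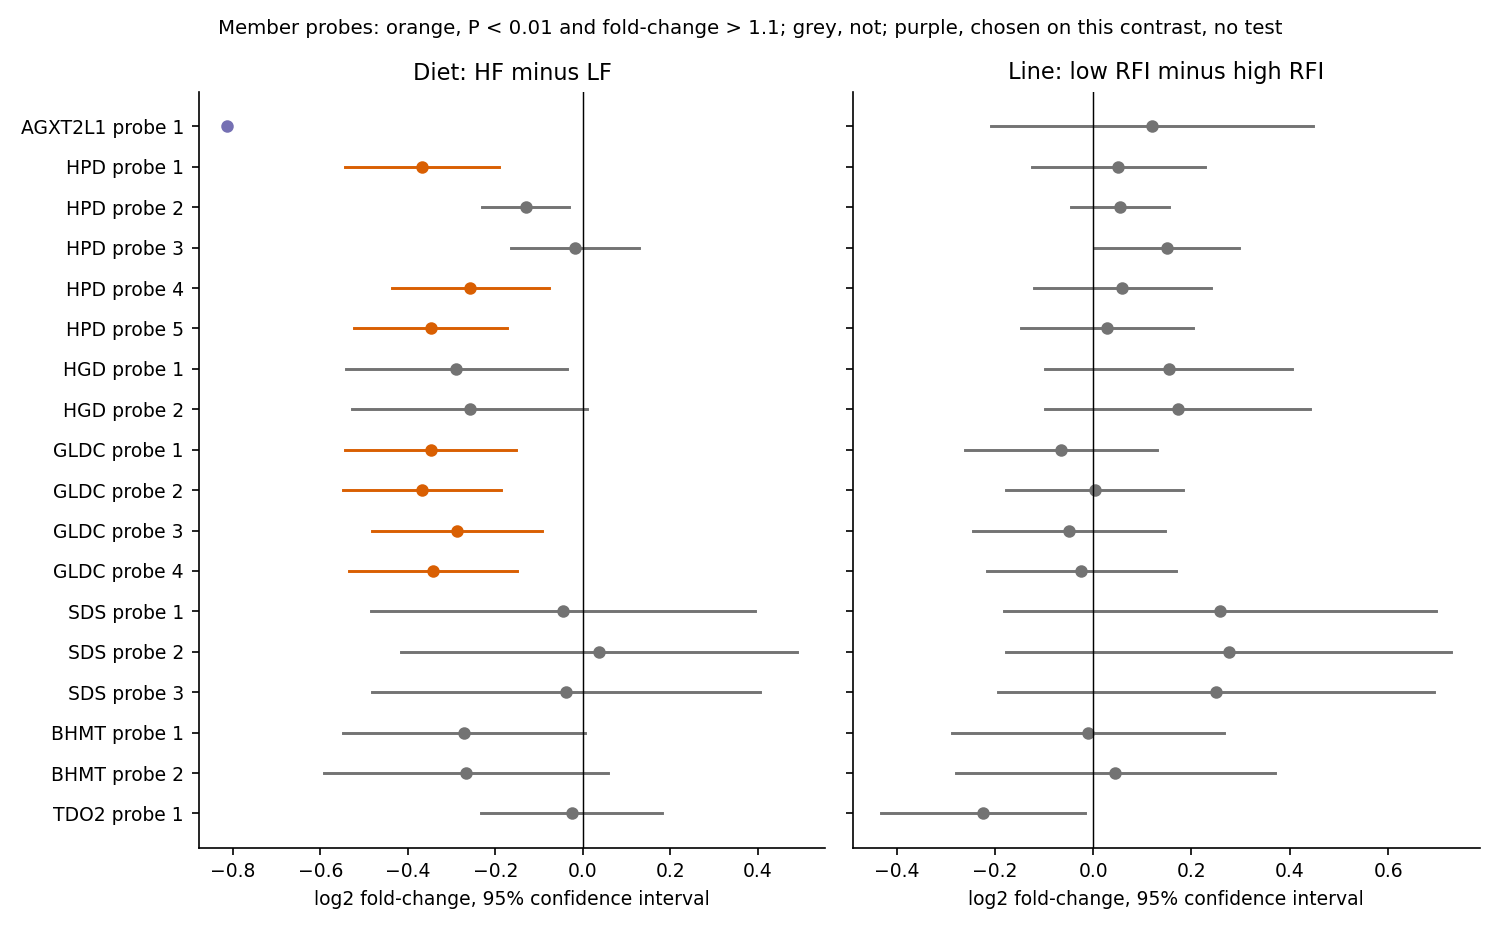
Log2 FC (x axis) of the 18 member probes (y axis) for diet on the left and for line on the right, with 95% confidence intervals, and in orange the probes that met the cut-offs. For diet, 7 probes of HPD and GLDC are orange and lower with HF, and AGXT2L1 (purple) is shown without an interval because it was chosen on this contrast. For line, no probe met the cut-offs.

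For diet, without AGXT2L1, 7 of 17 member probes met the cut-offs, all 7 lower with HF, and they belonged to HPD and GLDC. Over the whole array, 4.61% of tested probes met them. At a P-BH under 0.05, 3 of 17 member probes passed (2 of HPD, which are identical, and 1 of GLDC) against 0.455% of all probes. With 1 probe per gene, 2 of 6 members were called, against 4.19% of the 10589 named genes. All 6 had an FC below 0, with a median of -0.28, against 55.9% of all named genes below 0. Of the 17 probes, 16 lay below 0, and the exception was an SDS probe at 0.04. Since several probes measure the same RNA, the 7 probes are not 7 independent results. The members were also listed with earlier results of these data known.

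For line, none of the 18 member probes met the cut-offs in limma's fit, against 6.91% of all probes, or 6.76% of named genes with 1 probe per gene. No member passed a P-BH under 0.05 either, against 3.93% of all probes, and 2 of the 18 had an unadjusted P under 0.05. These were the TDO2 probe (P = 0.0345) and the HPD probe from the clone (P = 0.044).

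TDO2, the first enzyme of tryptophan breakdown, averaged 0.49 ± 0.39 (SD, n = 24) in low RFI pigs and 0.72 ± 0.31 (SD, n = 24) in high RFI pigs, an FC of -0.22 (standard error 0.10, P-BH = 0.281). The difference was 0.04 on the first scan day and -0.48 (P = 0.00275) on the second, so that the cut-offs were met on the second day alone. The brighter probe named TDO had 7.64 ± 0.23 (SD, n = 24) and 7.67 ± 0.20 (SD, n = 24), an FC of -0.03 (P = 0.589, P-BH = 0.896), with 0.08 and -0.14 on the 2 days. With group means subtracted, the 2 probes correlated at r = 0.64 across the 48 pigs.

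The line differences of the other members were 0.05 for HPD (standard error 0.09, P-BH = 0.884), 0.15 for HGD (standard error 0.13, P-BH = 0.661), -0.07 for GLDC (standard error 0.10, P-BH = 0.856) and -0.01 for BHMT (standard error 0.14, P-BH = 0.99). The direction for BHMT changed to above 0 with quantile normalization or the normexp background correction. Those of HPD and GLDC differed in sign between the scan days, with 0.25 and -0.15 for HPD and 0.03 and -0.16 for GLDC.

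SDS had the largest SD of the members in the low RFI line. Its signal ranged from 1.95 to 5.61 (median 2.99) with HF and from 2.002 to 5.91 (median 3.14) with LF in that line, while in the high RFI line it ranged from 2.43 to 4.02 (median 2.81) and from 2.25 to 3.52 (median 3.12). Low RFI pigs averaged 3.21 ± 0.99 (SD, n = 24) and high RFI pigs 2.95 ± 0.42 (SD, n = 24), an FC of 0.26 (standard error 0.22, P = 0.245, P-BH = 0.681). The FC was 0.49 (P = 0.0158) on the first scan day and 0.02 on the second. It was 0.14, 0.15 or 0.19 when the pig with the highest, the second or the third highest SDS was left out. In the low RFI line, 3 pigs lay above the highest pig of the high RFI line and 4 lay below its lowest pig. No test of the difference in spread was made.

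These 3 pigs with the highest SDS (5.91, 5.61 and 4.67) comprised 1 pig fed LF and 2 fed HF. The pig with the highest SDS ranked 2 of 48 for AGXT2L1, 7 for HPD, 11 for HGD, 25 for GLDC and 34 for BHMT, and the next ranked 8 for HGD but 38 for GLDC. The pig with the third highest SDS ranked 1 of 48 for HGD and 33 for AGXT2L1. Both pigs at the top were on the sixth slide, as was the pig with the fourth highest SDS (4.02), from the high RFI line.

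The diet response was not found to differ between the lines for any member. None of the 18 probes met the cut-offs for the interaction in limma's fit, against 0.376% of all probes. At a P-BH under 0.05, none did either, against 0% of the array, and 1 probe, the HPD probe from the clone, had an unadjusted P under 0.05 (interaction of 0.30, P = 0.0436, P-BH = 1). The interaction of the other members with 1 probe per gene was between -0.12 for SDS (standard error 0.44) and 0.08 for TDO2 (standard error 0.21). The confidence intervals of the interaction ran from -0.43 to 0.27 for HPD, from -0.40 to 0.38 for GLDC, from -0.45 to 0.55 for HGD and from -0.56 to 0.54 for BHMT, so for each of these 4 genes an interaction of the same size and sign as its diet difference lay within the interval.

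**Figure D3:**
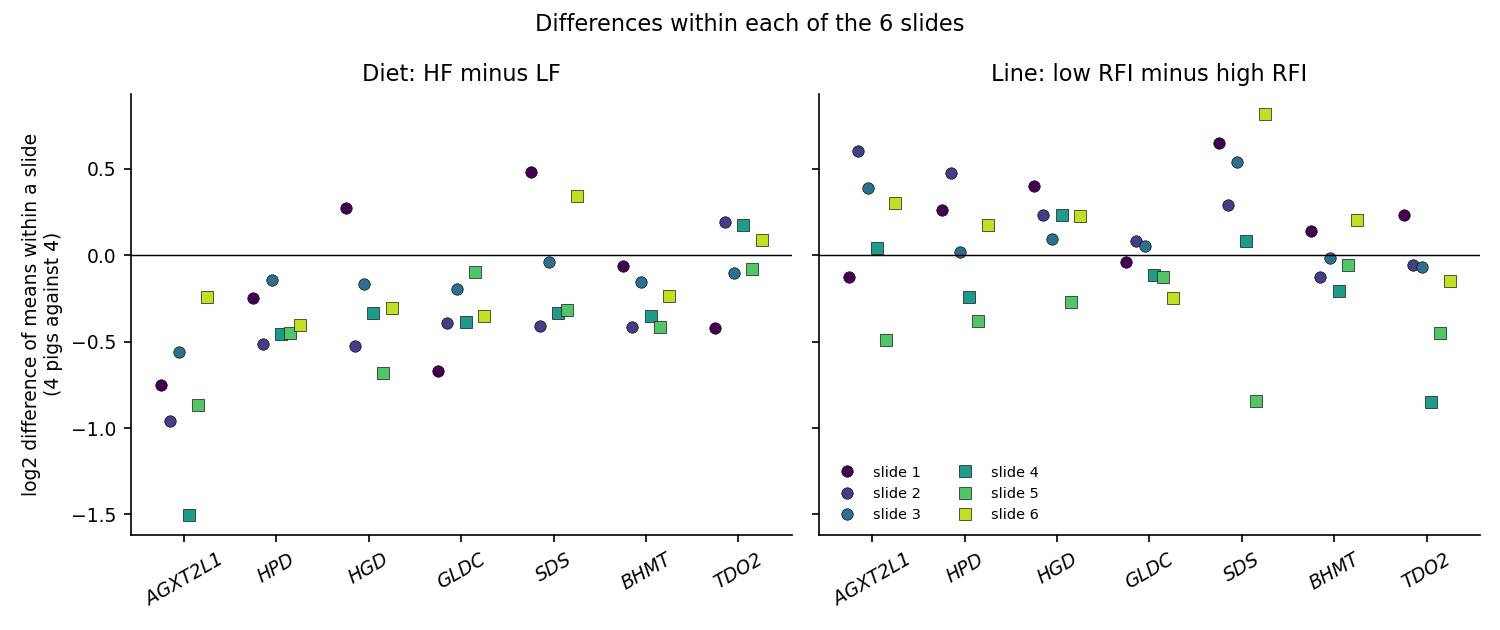
Difference of means within each slide (y axis, log2, 4 pigs against 4, 1 symbol per slide, circles for the first scan day and squares for the second) for diet on the left and line on the right, for 7 genes (x axis). For diet, all 6 slides lie below 0 for HPD, GLDC and BHMT, and also for AGXT2L1, which was chosen on this contrast. For line, the slides lie on both sides of 0 for every gene.

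Members were also compared with each other across pigs, after subtracting group means so that neither line nor diet could create a relation. There were 21 pairs of 7 genes, tested with a 2-sided permutation test with 100000 resamples within groups. TDO2 entered with the dimmer probe that the rule found. After Benjamini-Hochberg adjustment over the pairs, 3 pairs passed 0.05 with Pearson's r and 1 of these also with Spearman's rho.

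The closest pair was HPD and BHMT (r = 0.59, permutation P = 2e-05, adjusted P = 0.00042, rho = 0.60, permutation P = 3e-05, adjusted P = 0.00063, n = 48). Without the 2 pigs farthest from the HPD median, r was 0.62, and it was 0.75 among the pigs of the first scan day and 0.49 among those of the second. Pigs with more HPD signal than their group thus tended to have more BHMT signal, with both read on the same arrays. With group means subtracted, the log2 median intensity of the array had an r of -0.32 with HPD (permutation P = 0.0406, adjusted P = 0.0948 over 7 members). With BHMT its r was -0.11 (permutation P = 0.467, adjusted P = 0.653). Its part in the relation of HPD and BHMT was not tested.

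HGD followed with SDS (r = 0.44, permutation P = 0.00255, adjusted P = 0.0268, rho = 0.40, permutation P = 0.00548, adjusted P = 0.0575). Without the 2 pigs farthest from the HGD median it was 0.40, without the 2 farthest from the SDS median 0.46, and the scan days gave 0.58 and 0.40. HGD and BHMT gave r = 0.40 (permutation P = 0.00554, adjusted P = 0.0388, rho = 0.34, permutation P = 0.0225, adjusted P = 0.108), which was 0.31 without the 2 pigs farthest from the HGD median and 0.31 and 0.51 on the scan days.

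AGXT2L1 correlated most with HPD among the members (r = 0.36, permutation P = 0.03, adjusted P = 0.126, rho = 0.33, permutation P = 0.0353, adjusted P = 0.124), which did not pass, and r was 0.26 without the 2 pigs farthest from the AGXT2L1 median and 0.26 and 0.35 on the scan days. GLDC, which like HPD was lower with HF, had an r of 0.17 with it (permutation P = 0.312, adjusted P = 0.503, rho = 0.08, permutation P = 0.634, adjusted P = 0.739), which turned to -0.09 without the 2 pigs farthest from the HPD median.

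**Figure D4:**
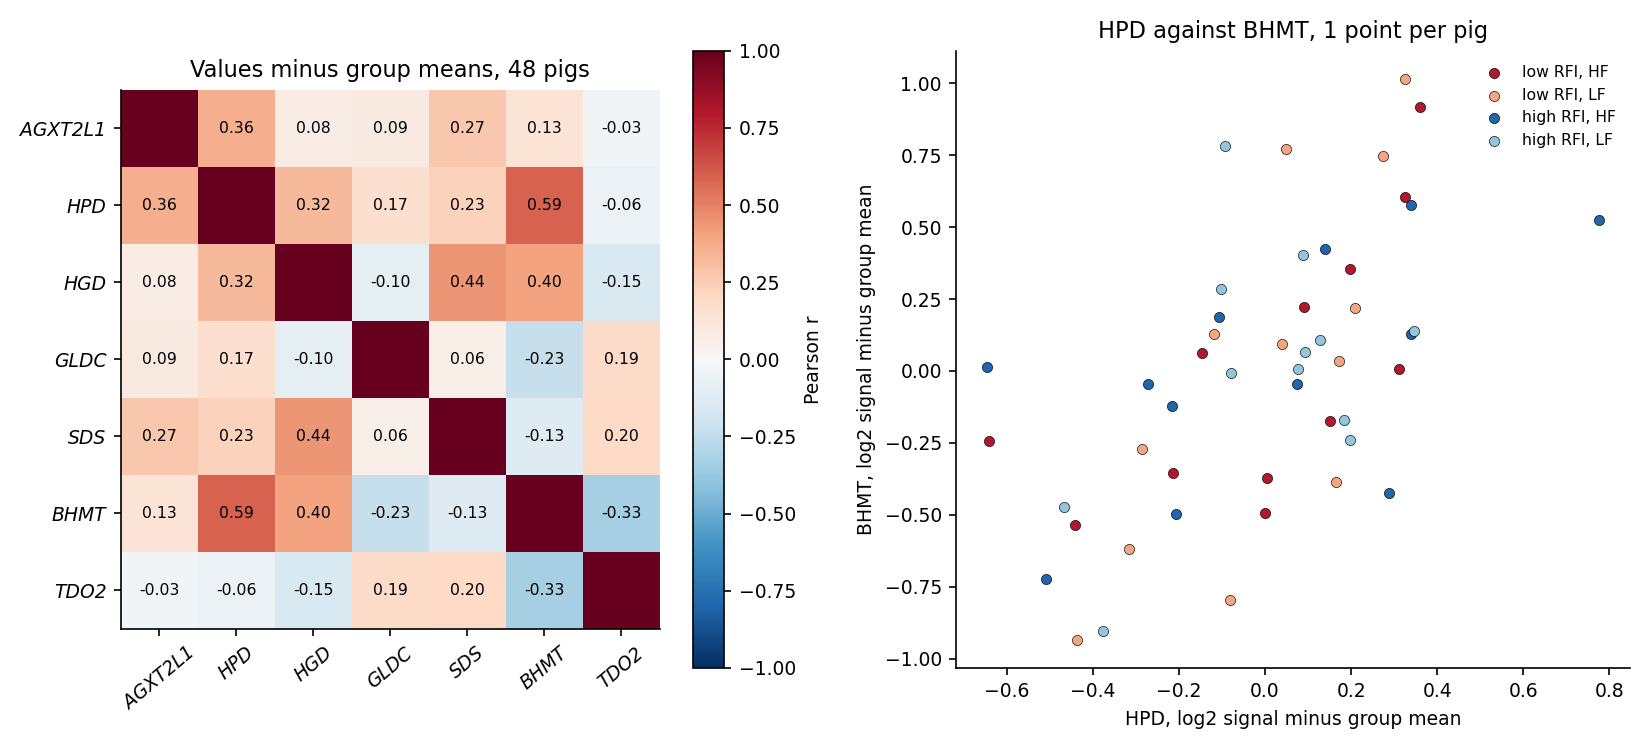
Pearson r of the 21 pairs of members across 48 pigs after subtraction of group means (left), and HPD (x axis) against BHMT (y axis) as log2 signal minus group mean, 1 point per pig (right). The highest r is 0.59, for HPD and BHMT, and the lowest is -0.33, for TDO2 and BHMT.

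Outside the members, genes among the 5 most like AGXT2L1 by the same measure, of 9259 named genes whose probe carried the flag on every array, included MBTPS1 (r = 0.71, rho = 0.67), KTI12 (r = 0.66, rho = 0.65), RAB3GAP2 (r = 0.63, rho = 0.71) and FAM118A (r = 0.61, rho = 0.64). The lowest were SRGAP2 (r = -0.61, rho = -0.62), B2MB (r = -0.58, rho = -0.56) and SLA-1 (r = -0.57, rho = -0.58). These are the extremes of many genes over the same 48 arrays and carry no test. The resemblance did not extend to diet, for which the FC of MBTPS1 was -0.00459.

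The other genes of amino acid breakdown were taken from lists by pathway, each gene represented by its brightest probe under that name. TDO2 was thus represented by the probe that the rule found, not by the brighter probe named TDO. For diet, 86 genes of the amino acid and urea cycle lists were measured, AGXT2L1 left out. Of these, 4 met the cut-offs (4.65%, near the 4.19% of all named genes), all lower with HF, and they were HPD, GLDC, UROC1 and SDSL. An FC below 0 was found for 73 of the 86 (84.9%), against 55.9% of all named genes, and the median FC was -0.09 against -0.02. Members are among these genes. Of the 7 general markers of hepatocytes described below, 6 also lay below 0 with HF (85.7%, median FC -0.09). Genes share pigs and are not independent, so these shares carry no test.

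UROC1, the urocanase of histidine breakdown, had 7.87 ± 0.31 (SD, n = 24) with HF and 8.17 ± 0.21 (SD, n = 24) with LF, an FC of -0.30 (standard error 0.08, P = 0.000274, P-BH = 0.053), and all of its 5 probes met the cut-offs. SDSL, a relative of SDS, had an FC of -0.24 by its only probe (standard error 0.09, P = 0.00916, P-BH = 0.194).

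By pathway, all 7 genes measured for tyrosine and phenylalanine had an FC below 0 with HF, from -0.37 to -0.02 with a median of -0.14, and HPD was the only one called. The glycine, serine and threonine list had 13 of 15 below 0 (median -0.09), with GLDC and SDSL called. The 3 genes measured for lysine (-0.27 to -0.22) and the 6 for the urea cycle (-0.26 to -0.01) all lay below 0 as well, with none called. Branched-chain amino acid genes had 16 of 20 below 0 (median -0.09, none called), and methionine and cysteine genes 12 of 14 (median -0.09, none called). Tryptophan genes had 5 of 6 below 0 (median -0.14, none called). The glyoxylate and aminotransferase list had 4 of 5 below 0 (median -0.28, none called), the histidine list 3 of 4 (median -0.06, UROC1 called) and the list for proline, glutamine, glutamate and asparagine 4 of 6 (median -0.05, none called). Of the 5 genes measured for the metabolism of phosphoethanolamine, the substrate of AGXT2L1, 3 lay below 0 with a median of -0.01, and none was called. Among 15 hormonal and transcriptional regulators and their targets, 10 lay above 0 with a median of 0.08, and none was called.

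For line, 5 of 87 genes of the amino acid and urea cycle lists met the cut-offs (5.75% against 6.76% of all named genes), and none of them was a member. DAO, which oxidises D-amino acids, was over-expressed in the low RFI line. Its signal averaged 5.64 ± 0.44 (SD, n = 24) in low RFI pigs and 5.12 ± 0.19 (SD, n = 24) in high RFI pigs, an FC of 0.52 (standard error 0.09, P-BH = 0.000256) shown by both of its probes. BHMT2, whose only probe is printed above, averaged 2.81 ± 0.33 (SD, n = 24) in low RFI pigs and 2.40 ± 0.30 (SD, n = 24) in high RFI pigs, an FC of 0.41 (standard error 0.09, P-BH = 0.00237), while BHMT itself differed by -0.01. GCSH, the carrier protein of the same cleavage system as GLDC, had an FC of 0.32 (standard error 0.09, P-BH = 0.041). The P-BH of GCSH was 0.0578 without a filter on dim probes and 0.318 and 0.436 on the scan days alone, that of BHMT2 was 0.561 on the second day alone, and that of DAO 0.0809 on the first.

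Under-expressed in the low RFI line were MTRR, which reactivates methionine synthase (FC -0.16, P = 0.00503, P-BH = 0.0925, called by 1 of its 2 probes), and ACADSB, a dehydrogenase of isoleucine breakdown (FC -0.19, P = 0.00764, P-BH = 0.12). Among the regulators, CEBPB, a transcription factor active in liver, was lower in that line (FC -0.29, P = 0.00768, P-BH = 0.12), by 1 of its 2 probes.

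**Figure D5:**
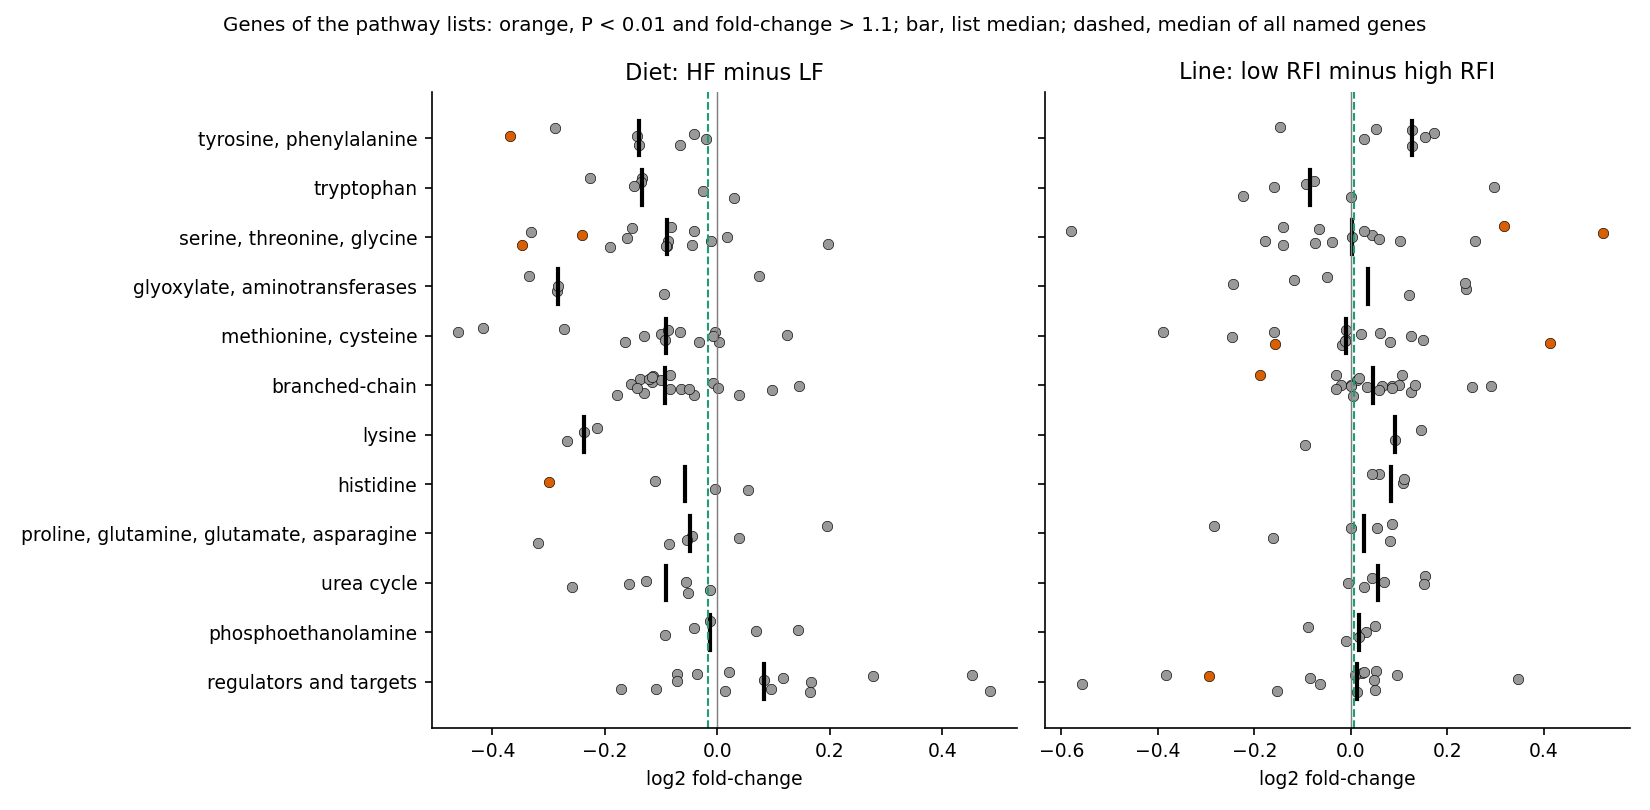
Log2 FC (x axis) of genes of each pathway list (y axis) for diet on the left, AGXT2L1 left out, and for line on the right, with the list median as a bar, genes that met the cut-offs in orange, and the median of all named genes as a dashed line. For diet, the 4 called genes of the breakdown lists lie below 0, and the list medians lie from -0.28 to -0.01 except that of the regulators, which is 0.08.

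Liver tissue holds other cells than hepatocytes, and in whole tissue fewer cells of a type and less RNA per cell cannot be told apart. The 7 hepatocyte markers, such as ALB and TTR, were all measured, and the log2 of their summed signal ranged from 12.44 to 13.06 with HF and from 12.72 to 13.08 with LF. With HF, 6 of these 7 lay below 0 (median FC -0.09), all 7 markers of stellate cells and fibroblasts (median 0.12) and all 5 of cholangiocytes (median 0.22) lay above 0, and none of these was called. Markers of Kupffer cells (6 of 8 above 0), T and NK cells (4 of 6 above 0), endothelial cells (3 of 6 above 0), red blood cells (all 3 below 0, median -0.57) and of hepatocytes around the portal vein (3 of 6 above 0) or the central vein (4 of 6 above 0, median 0.27) likewise included none called for diet. The log2 summed signal of the stellate cell list was from 4.90 to 6.23 with HF and from 4.88 to 5.74 with LF. Their part in the lower HPD and GLDC with HF was not tested. For line, 2 of 6 markers of hepatocytes around the central vein and 1 of 5 of cholangiocytes were called. The share among all named genes was 6.76%. The called markers were all lower in the low RFI line, and no marker of the other lists was called. Of the 6 central vein markers, 5 lay below 0 (median FC -0.32), and 1 had a P-BH under 0.05.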

How the data were processed

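Liver RNA of 48 pigs was labelled with 1 dye and hybridized to 1 array each. The authors deposited the scanner output, with a background-subtracted intensity and flags for every spot and without normalization between arrays. They also deposited log2 values, made in R 2.10.0 from filtered spots by centring on the median of each sample, which were used as an alternative. Control spots were left out, 483 outlier spots were set to missing, and 0 spots were saturated. Log2 intensities of the 45236 probes that 12 or more arrays flagged as well above background were centred on the array median and fitted with line, diet and their interaction in limma 3.58.1 (R 4.3.3). A call required a P under 0.01 with an unlogged fold-change over 1.1, and results at a P-BH under 0.05 are given beside it. Genes were named through accessions in a reference table of the assembly Sscrofa11.1 (7062 probes), otherwise by the scanner output (16910 probes). On simulated data, 88.5% of 200 probes changed by 0.5 (log2) between 24 and 24 arrays were called, and 0.95% of unchanged ones. The noise was drawn independently for each probe. A change of 0.5 exceeds the FC of every member probe tested for line or diet, so the share called for changes of their size is not given by it. The number of arrays limits the precision.

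The members, the pathway and marker lists and the cut-offs were chosen with earlier results of these data known. Named beside the members are list genes that met the cut-offs and the genes most and least correlated with AGXT2L1. A gene within this rule is not reported here. The same was planned for TAT, which had no probe. Array median intensity as a covariate and the fits without a pig of high SDS were chosen after the data were seen.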

Additional observations from a re-analysis of the deposited data

How the results depend on the processing

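Alternatives were an unmoderated ANOVA, other scalings (75th percentile, quantile), backgrounds (normexp, median signal), filters, input values, blocks for slide and scan day, each scan day alone, a model without interaction, the mean over probes, and array median intensity as a covariate. The member probes called for diet numbered 7, and 6 or 7 in every fit but those of a single scan day, with 24 of the 48 arrays, which gave 3 each. At a P-BH under 0.05 the 3 member probes became 0 without a filter on dim probes (HPD 0.0652), on either scan day alone, or with the covariate (HPD 0.105), and the P-BH of HPD was between 0.0296 and 0.558 over all fits. The count of 0 for line was 1 on the second scan day, the TDO2 probe. Called genes of the breakdown lists, phosphoethanolamine included, numbered 5 for line and 4 for diet. In the alternatives with all 48 arrays they numbered 4 to 7 for line and 3 to 5 for diet, and each scan day alone gave 2 for either effect. Members with a small FC changed sign, with no test passed. The line FC of BHMT was 0.008797 with quantile normalization, 0.005022 with normexp and 0.01711 with the mean over its probes. On the first scan day alone, the line FC was 0.03665 for TDO2 and 0.03074 for GLDC, and the diet FC was 0.01297 for SDS. On the second, the line FC was -0.04737 for AGXT2L1 and -0.1476 for HPD, and the diet FC was 0.06049 for TDO2, which was 0.03058 with the covariate. The diet difference of AGXT2L1 stayed between -0.87 and -0.75. The cause of these changes was not tested. The pairs of members that passed numbered 3, and 2 to 4 in the alternatives. No paired analysis was possible because each pig had 1 array, 1 line and 1 diet, and the labels name no pairs of pigs.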
